A study of Saccharomyces cerevisiae with 2 samples.

Results

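The genes considered here are the protein-coding genes near chromosome ends of Saccharomyces cerevisiae. They are the genes of the RefSeq annotation of sacCer3 whose start lies within 15 kb of either end of a nuclear chromosome, without the 8 YRF1 genes that lie in the same range. This gave 174 of 6002 nuclear protein-coding genes, with 2 to 10 genes (median 5) at each of the 32 ends. The other 5820 genes start farther away. The data are a ChIP-seq experiment (chromatin immunoprecipitation followed by sequencing) on Vid22, a partner of the DNA-binding protein Tbf1, and they map its occupancy along the genome. The Vid22-13Myc strain carries Vid22 fused at its C-terminus to 13 copies of the Myc epitope and was precipitated with anti-MYC (9E10). The control was a wild type (no tag) strain whose label lists "none" as antibody, although the methods describe the same precipitation, so how it was treated is unclear. For both, overnight pre-cultures in YEP were diluted, regrown and fixed with formaldehyde, and DNA of 2 ChIP experiments was pooled for each library. There is therefore 1 library per condition and no replicate, so no test between samples could be made, and the 95% Wilson intervals given with shares cover counting error only.

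The ends of yeast chromosomes carry short TG-rich telomeric repeats, and next to them lies an X element, present at every end, and at many ends also 1 or more copies of the longer Y' element. The adjoining subtelomeric region holds multigene families whose copies are shared between ends, among them the PAU (seripauperin) cell wall proteins and the COS proteins, which help to sort membrane proteins for degradation. Genes there can be silenced by the Sir proteins, while Tbf1, a general regulatory factor, binds TAGGG-containing repeats in these regions. G-quadruplexes (G4) are four-stranded DNA structures formed by runs of guanine, of which telomeric repeats are a well known example.

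A gene was called overlapped when its body or the 500 bp upstream of its start, together its window, shared at least 1 base with a peak of -log10 q of at least 9. Of the 811 deposited peaks, 445 passed that threshold. Vid22 peaks overlapped 13 of the 174 genes (7.47%, 95% Wilson interval 4.42 to 12.4), against 694 of the 5820 genes farther away (11.9%, 11.1 to 12.8) and 11.8% of all nuclear protein-coding genes. The 13 genes lay at 11 different ends and were overlapped by 11 distinct peaks. With any deposited peak the count was 17 (9.77%), against 17.6% of the genes farther away and 17.3% of all genes. The summit itself fell in the window of 4 genes (2.30%), against 6.96% of the genes farther away and 6.81% of all. These 4 were YCR108C, YER188C-A, IMD2 and YOL166W-A.

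The sequences at the peaks that carried the result are given first. They were read from sacCer3, 5′ to 3′ on the strand of the gene named. In the first set, each is the 101 bp around a summit, and capitals mark TAGGG or its complement CCCTA, which was searched on both strands and may overlap itself. TAGGG occurs in 7.38% of all 101 bp windows of the nuclear genome. FET4 and IMD2 were the only genes overlapped by a peak away from an annotated telomeric region, YFL064C shared its strong peak with COS4, and YNR077C had the most TAGGG sites in this window.
FET4, chrXIII:915024-915124, minus strand: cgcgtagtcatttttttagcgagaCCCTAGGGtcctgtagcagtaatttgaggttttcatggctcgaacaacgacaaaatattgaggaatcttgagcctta
IMD2, chrVIII:554158-554258, plus strand: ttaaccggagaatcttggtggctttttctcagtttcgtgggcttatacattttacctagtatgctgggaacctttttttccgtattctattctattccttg
YFL064C, chrVI:4909-5009, minus strand: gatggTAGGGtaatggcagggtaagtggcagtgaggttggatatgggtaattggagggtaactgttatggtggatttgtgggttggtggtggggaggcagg
YNR077C, chrXIV:783994-784094, minus strand: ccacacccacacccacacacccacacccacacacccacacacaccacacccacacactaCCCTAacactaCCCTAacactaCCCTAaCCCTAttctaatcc
YER188C-A, chrV:569834-569934, minus strand: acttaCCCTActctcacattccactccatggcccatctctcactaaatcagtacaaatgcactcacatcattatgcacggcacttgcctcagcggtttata
YLL066W-B, chrXII:5767-5867, plus strand: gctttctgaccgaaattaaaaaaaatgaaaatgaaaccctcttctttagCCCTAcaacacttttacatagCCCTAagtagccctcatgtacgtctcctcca

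At the FET4 summit a CCCTA and a TAGGG overlapped in 1 palindromic stretch, while the IMD2 summit held no TAGGG in this window. The window at YNR077C reached from the telomeric TG repeats, read here on the C-rich strand, into 4 CCCTA sites. The window at YLL066W-B held 2. Not all summits are shown. Of those left out, the windows at YBL113C and YOL166W-A held 1 TAGGG each. The windows at YCR108C, YEL075C and the peak shared by YHL049C and YHL048C-A held none. There the nearest TAGGG lay 65, 257 and 97 bp from the summit, in that order.

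A second set shows predicted G4 elements, found on either strand as runs of 4 or more tracts of 3 or more G, separated by 1 to 25 bases. They are written on the G-rich strand, and capitals mark the G tracts. They are shown because these elements, each inside a peak at one of the genes, are alike in sequence although they come from different chromosomes.
Element at YCR108C, chrIII:316304-316370, plus strand: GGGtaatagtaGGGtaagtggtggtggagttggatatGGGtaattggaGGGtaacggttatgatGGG
Element at YNR077C, chrXIV:783794-783871, plus strand: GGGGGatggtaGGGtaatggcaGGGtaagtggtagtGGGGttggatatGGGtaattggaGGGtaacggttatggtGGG
Element at YER188C-A, chrV:570125-570314, plus strand: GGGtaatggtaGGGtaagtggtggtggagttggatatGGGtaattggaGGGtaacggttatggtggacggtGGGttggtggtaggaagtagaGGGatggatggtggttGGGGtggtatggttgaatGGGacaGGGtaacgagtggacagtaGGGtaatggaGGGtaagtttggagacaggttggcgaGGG
Element at YOL166W-A, chrXV:250-312, minus strand: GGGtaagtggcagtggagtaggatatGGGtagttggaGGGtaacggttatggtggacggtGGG
Longest stretch shared by the 4 elements: ttggaGGGtaacggttatg

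This shared stretch of 19 bases occurred 21 times in the nuclear genome on either strand, at 21 different ends, always within 15 kb of the end and in an annotated telomeric region. Of the 21 copies, 16 lay in a peak, with the summit 3 to 293 bp away (median 89.5). The 5 copies outside peaks were at II right, IV left, XIII left, XV right and XVI left, all of them ends without a peak. The stretch was picked after the peaks were seen, so these counts are a description.

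The overlapped genes followed the telomeric region, the interval that the annotation gives for the X element, any Y' element and the terminal repeats. Of the 34 genes whose body touched such a region, 9 were overlapped (26.5%, 14.6 to 43.1), against 4 of the 140 other genes (2.86%, 1.12 to 7.12). Those 4 were FET4, IMD2, COS4 and YHL048C-A, and COS4 and YHL048C-A were reached by peaks that also overlapped the telomeric region. The peaks behind 11 of the 13 genes thus lay on a telomeric region.

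**Figure D1:**
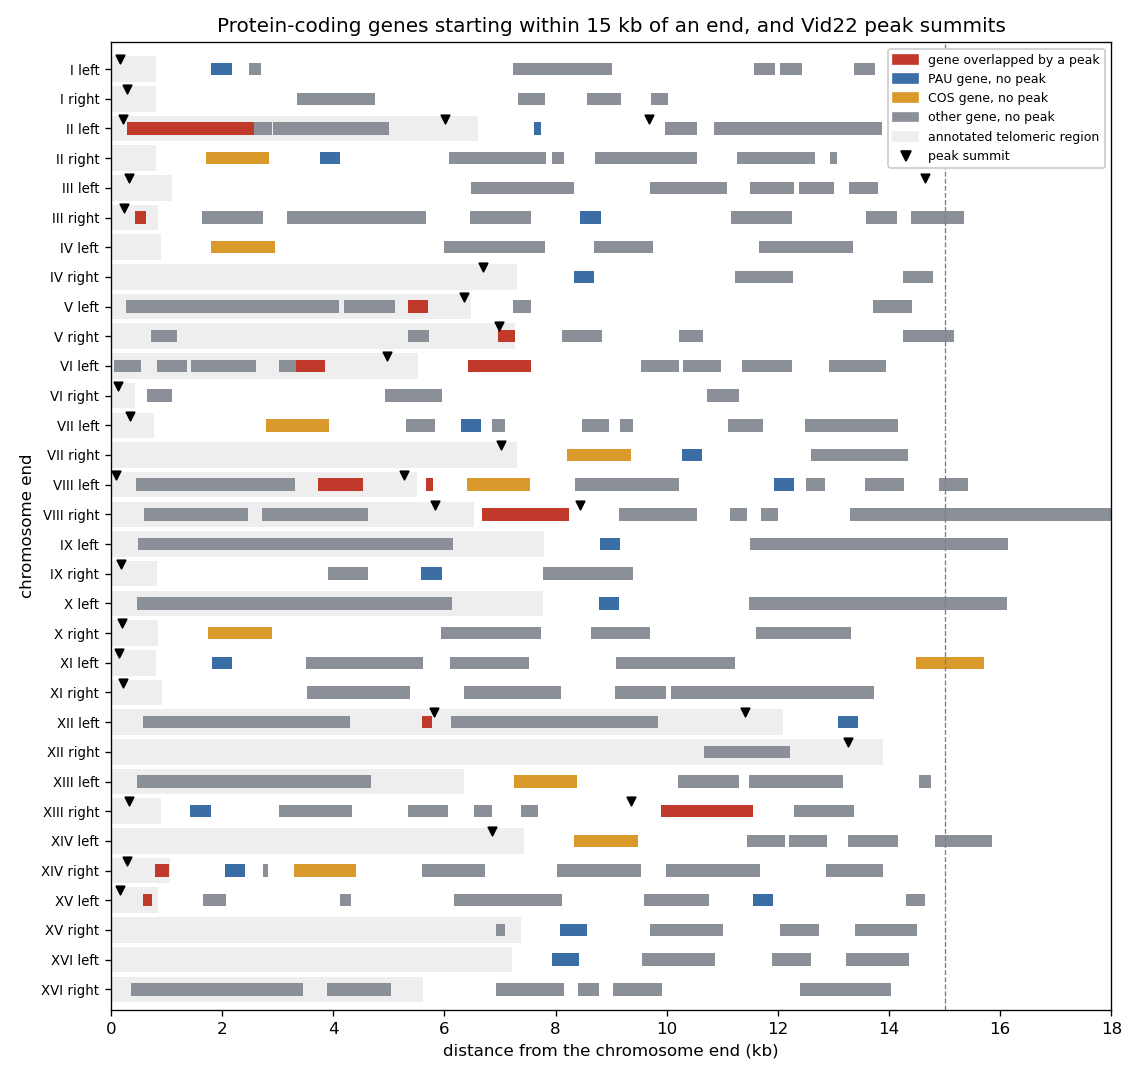
Protein-coding genes whose start lies within 15 kb of each of the 32 chromosome ends (rows), drawn by distance from the end in kb, with annotated telomeric regions shaded and summits of the peaks past the threshold as triangles. The 13 overlapped genes are red, and most summits sit inside or beside a shaded region rather than over a gene.

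Genes annotated only by a locus tag made up most of the overlapped set. Of 71 such genes 10 were overlapped (14.1%, 7.83 to 24.0), against 3 of the 103 genes with a name (2.91%, 0.995 to 8.22). Among the genes farther away, the shares were 10.1% for locus tags and 12.2% for named genes. The 3 named genes were FET4, IMD2 and COS4. All 34 genes whose body touched a telomeric region had only a locus tag. Of the 10 overlapped locus tags, all but YHL048C-A were among these 34. The contrast by name was therefore not separate from that by telomeric region.

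FET4 encodes the low-affinity Fe(II) transporter of the plasma membrane. It had the highest peak of all those within 15 kb of an end, with a fold enrichment of 4.24 and a -log10 q of 153.3, ranked 79 of the 445 peaks by fold. The peak, chrXIII:913941-915972, covered 598 bp of the gene body and its upstream window, and the summit lay 536 bp upstream of the start, just outside the window. All 50-mers in the FET4 window occurred once in the genome, and no telomeric region or G4 element was touched. A weaker peak, with a fold of 1.53 and a -log10 q of 5.61, covered 957 bp of the 3' part of the gene. The neighbouring ADH6, an NADPH-dependent alcohol dehydrogenase, was overlapped by that weaker peak and by another with a fold of 1.48. Of the other iron gene of the set, ARN2, a siderophore transporter, the window was also fully unique, and no peak overlapped it.

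IMD2 encodes inosine monophosphate dehydrogenase, the rate-limiting enzyme of GTP synthesis, which is induced by mycophenolic acid. Its peak, chrVIII:553740-554690, had a fold of 1.81 and a -log10 q of 15.6, with the summit 188 bp upstream of the start. It covered 295 bp of the gene body, touched no predicted G4 element and held no TAGGG within 100 bp of the summit. The window of IMD2 had 75.2% unique 50-mers.

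COS4 and YFL064C on the left arm of chromosome VI are transcribed away from each other and shared the second highest of these peaks, chrVI:4219-6378, with a fold of 3.44 and a -log10 q of 117.2. Its summit lay 1467 bp upstream of COS4 and 1113 bp upstream of YFL064C, and its edges ended 48 bp and 373 bp from their starts. The calls therefore came from the width of the peak, 2160 bp, and not from its summit. On the left arm of chromosome VIII, YHL049C and YHL048C-A likewise shared 1 peak, chrVIII:4985-5778, with a fold of 1.99. Its summit was 729 bp upstream of YHL049C and 393 bp past the end of YHL048C-A.

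YBL113C, which codes for a helicase-like protein within a Y' element, was overlapped at its 3' end by 217 bp of a peak, chrII:1-496, with a fold of 2.86. The summit lay 72 bp past the end of the gene and 207 bp from the end of the chromosome. The other 13 Y' helicase-like genes were not overlapped, and their windows had at most 20.3% unique 50-mers (14.97% in YBL113C).

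The other overlapped genes encode hypothetical proteins and lay in or beside an annotated telomeric region. YCR108C, under the peak chrIII:315896-316620, had a fold of 2.70 with the summit 194 bp upstream, and the peak covered all 192 bp of the gene. YER188C-A (peak chrV:569142-570346) had a fold of 2.49 with the summit 23 bp inside the gene, the only summit in a body. YEL075C (chrV:6183-6643) had a fold of 2.38, but the peak reached only 31 bp of its upstream window. YNR077C (chrXIV:783559-784142) had a fold of 2.02 with the summit 503 bp upstream, 289 bp from the end of the chromosome. YLL066W-B (chrXII:5495-6037) had a fold of 1.78 with the summit 42 bp past its end, and the whole gene lay in the peak. YOL166W-A (chrXV:1-795), with a fold of 1.56 and a -log10 q of 11.8, was the weakest, and its window of 99.7% unique 50-mers was among the least repeated. These peaks overlapped the short genes as they overlapped the telomeric region around them, and the file does not separate them.

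The PAU list had 18 genes, the largest named family of the set. The count of overlapped genes was 0 of 18, against 11.8% of all genes. It allows a share of up to 16.7% taken as 3 counts of the total (upper Wilson bound 17.6%). The 50-mers in their windows were 0% to 73.1% unique (median 33.2%), and PAU1, PAU14, PAU21 and PAU22 had no unique 50-mer. PAU10 was reached by a peak below the threshold, with a fold of 1.42 and a -log10 q of 2.96, whose summit was 713 bp upstream.

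Of the 11 COS genes only COS4 was overlapped, and COS6 by a weak peak with a fold of 1.49 and a -log10 q of 3.70. COS10 and COS12 had fully unique windows and no peak, whereas COS2 and COS3 had no unique 50-mer. Across the 12 genes annotated as members of the DUP380 subfamily, to which the COS genes belong, 1 was overlapped.

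No peak past the threshold overlapped the 9 genes of sugar uptake and use, such as the maltose genes MAL31 to MAL33 and the transporters HXT15 to HXT17. The same held for the 7 genes of the vitamin list. It holds THI5 and THI12 for the thiamine precursor, the SNZ genes of vitamin B6 synthesis and the SNO genes. Among the latter, SNO4 is annotated as a possible chaperone and cysteine protease, with only a predicted part in vitamin B6 metabolism. Nor did such a peak overlap the 3 PHO genes or the 3 enolase-related ERR genes. These lists are too short for such counts to be set apart from the 11.8% of all genes. The counts of 0 allow shares of up to 33.3% for sugar and 42.9% for vitamin genes on the same reckoning of 3 counts, and they set no limit for the PHO and ERR genes. Among 9 genes of the ADH, AAD, SOR, FRE and IRC names none was overlapped by a strong peak, and ADH6 and IRC7, a cysteine desulphydrase, were so by weak ones only. IRC7 lay under 2 peaks with folds of 1.41 and 1.37. The windows of ADH6 and IRC7 were fully unique in sequence, as were those of ADH7, IRC4 and FRE2, which had no peak.

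Of the remaining 38 named genes, which belong to none of these lists, 0 were overlapped by a peak past the threshold, against 11.8% of all genes. This count allows a share of up to 7.89% taken as 3 counts of the total (upper Wilson bound 9.18%). These 38 genes had 17 fully unique windows, so the bound also counts windows where reads could be placed only in part or not at all. They include ARR1, ARR2 and ARR3, a regulator, a reductase and a transporter of arsenic resistance that lie side by side on XVI right, an end without any peak, and ERO1, the thiol oxidase of protein folding in the endoplasmic reticulum, on XIII left, another such end. Copies shared between ends had less unique sequence. The vacuolar sorting receptor relatives VTH1 and VTH2 had 0.971% unique 50-mers each, the glutathione antiporters GEX1 and GEX2 had 46.8% and 47.0%, and the fluoride exporters FEX1 and FEX2 had 38.2% and 35.3%. HMLALPHA1 and HMLALPHA2, the silenced mating type genes, had no unique 50-mer. The other 2 DUP genes, DFP4 and ECM34, were fully unique and had no peak. Of the 57 genes that had only a locus tag and fell in no list, 17 were fully unique, and none of these was overlapped, YFR057W at 1100 bp from the end of VI right being the nearest of them to an end.

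**Figure D2:**
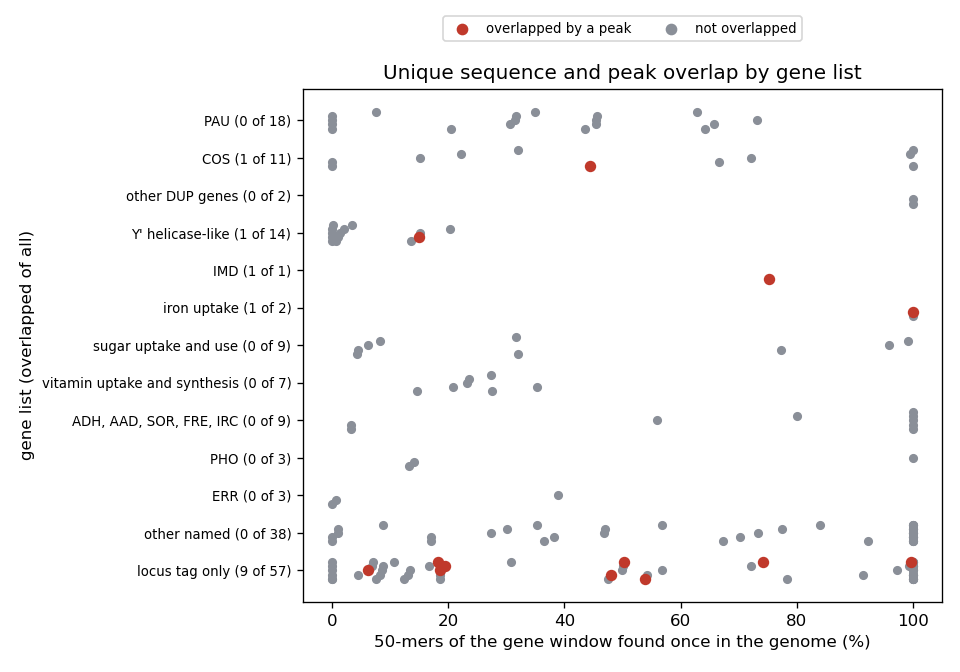
Share of unique 50-mers in the window of each of the 174 genes (x axis, %) by gene list (rows, with overlapped of all genes). Red points are the 13 overlapped genes, which run over 6.21% to 100% unique 50-mers, and 10 of them have no gene name, 9 in the bottom row and YBL113C among the Y' helicase-like genes.

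How far repeated sequence limits these counts was measured as the share of 50-mers, the length of the reads, that occur once in the genome, since reads with more than 1 best position were discarded. The median gene window near an end had 44.0% unique 50-mers, against 100% farther away. Windows under 50% unique numbered 96 (55.2%), against 145 (2.49%) of the genes farther away. The 19 windows with no unique 50-mer had no peak. Among windows that were fully unique, 1 of 46 genes was overlapped (2.17%, 0.385 to 11.3), against 558 of 5285 farther away (10.6%, 9.76 to 11.4). That gene was FET4. The interval near ends contains the share farther away. In windows that were 25 to 50% unique the counts were 2 of 28 (7.14%) near ends, against 1 of 24 (4.17%) farther away, and at 50 to 75% they were 3 of 17 (17.6%), against 4 of 40 (10.00%). At 75% to under 100% they were 2 of 14 (14.3%), against 119 of 350 (34%), and under 25% they were 5 of 69 (7.25%), against 12 of 121 (9.92%). No direction held over all these classes. Over the positions where a unique 50-mer starts, 9.27% of those within 15 kb of an end lay in a peak, against 4.96% elsewhere. The higher share came from the telomeric regions, where 73.1% of such positions lay in a peak. Within 15 kb but outside these regions it was 3.57%, below the share elsewhere.

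By distance, 6 of 39 genes starting within 5 kb were overlapped (15.4%, 7.25 to 29.7) and 7 of 67 at 5 to 10 kb (10.4%, 5.15 to 20.03). At 10 to 15 kb it was 0 of 68, which allows a share of up to 4.41% taken as 3 counts of the total (upper Wilson bound 5.35%). Of these 68 windows 25 were fully unique. None of these 25 was overlapped (upper Wilson bound 13.3%), and that interval contains the 10.6% of fully unique windows farther away. Outside the set, the count was 7 of 54 at 15 to 20 kb (13.0%, 6.42 to 24.4), 20 of 141 at 20 to 30 kb (14.2%, 9.37 to 20.9), 63 of 311 at 30 to 50 kb (20.3%, 16.2 to 25.1) and 604 of 5314 beyond 50 kb (11.4%, 10.54 to 12.2). The farthest overlapped gene was FET4, with its start 9893 bp from the end. Around the 15 kb limit itself, THI12 (14831 bp) and ECM34 (14900 bp) just inside and HXK1 (15112 bp) and MAL11 (15127 bp) just outside had no peak.

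**Figure D3:**
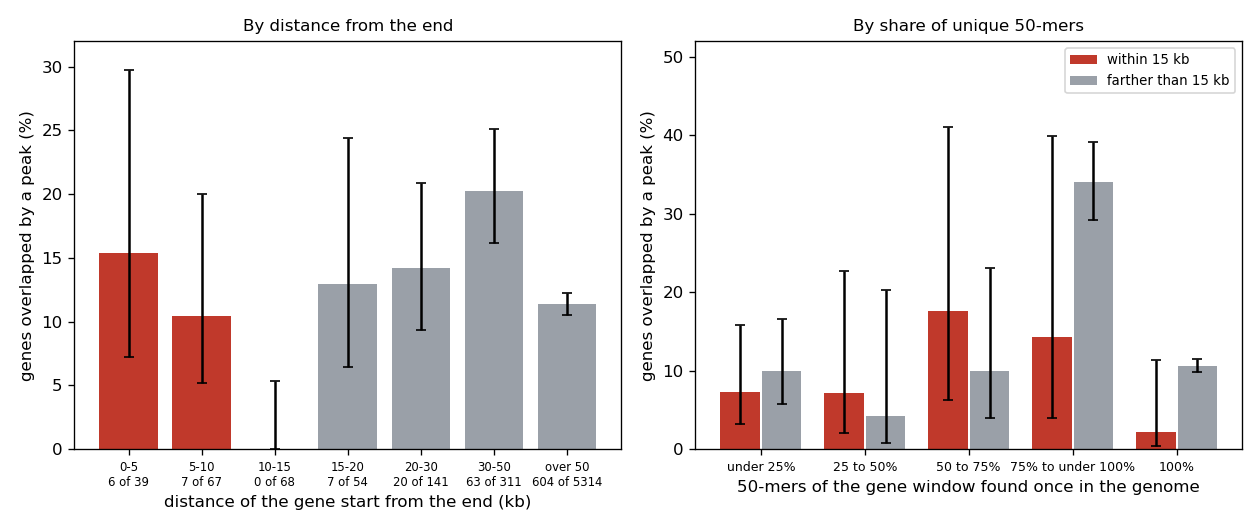
Share of genes overlapped by a peak (%), by distance of the start from the chromosome end (left panel) and by share of unique 50-mers in the window (right panel), with 95% Wilson intervals as bars. Genes within 15 kb are red and genes farther away grey, and none of the 68 genes at 10 to 15 kb was overlapped.

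By direction of transcription the counts were close. Of 95 genes transcribed toward the end 6 were overlapped, and of 79 transcribed toward the centromere 7. TAGGG was present in the 500 bp upstream of 60 genes (34.5%), against 33.6% of the genes farther away. Of these 60 genes 5 were overlapped (8.33%, 3.61 to 18.1), against 8 of the 114 without it (7.02%, 3.60 to 13.2), while farther away the shares were 16.0% with and 9.86% without TAGGG. A predicted G4 element lay in the window of 21 genes, of which 5 were overlapped (23.8%, 10.6 to 45.1), against 107 of 565 genes with an element farther away (18.9%, 15.9 to 22.4).

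Looking from the peaks, 31 of the 445 had their summit within 15 kb of an end (6.97%), in a stretch that makes up 3.98% of the nuclear genome, on 24 of the 32 ends. Of these 31 peaks, 12 overlapped a protein-coding window (38.7%, 23.7 to 56.2), 11 of them at the genes described here and 1 at a YRF1 gene, against 350 of the 414 peaks elsewhere (84.5%, 80.7 to 87.7). Bases inside gene windows were covered by peaks to 1.93% within 15 kb of an end and to 4.76% elsewhere, while bases outside gene windows were covered to 12.7% near ends and 5.55% elsewhere. Within telomeric regions 3.12% of the bases inside gene windows lay in peaks, against 49.7% of those outside. These shares are over all bases, unique or not. The windows of the genes that touch such a region had a median of 6.50% unique 50-mers. How far this lowers the share inside gene windows was not tested. A predicted G4 element overlapped 23 of the 31 peaks (74.2%), against 14.7% elsewhere. All 23 overlapped a telomeric region, and the peaks near ends were longer (median 795 bp, against 502 bp elsewhere). A TAGGG lay within 100 bp of the summit of 24 of the 31 (77.4%), against 32.1% elsewhere. TAGGG is found in 14.3% of all windows of that reach. Only 1 of the 31 peaks held a tRNA gene, against 159 of the 414. An annotated replication origin was overlapped by 13 of the 31, against 13 of the 414. The median fold was 2.11 near ends and 1.87 elsewhere.

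Of the 31 peaks, 27 overlapped a telomeric region. In 24 of them, 1 at each of 24 ends, the summit lay 129 to 781 bp (median 604.5) toward the telomere from the inner edge of the region, the side on which the X element lies. In the other 3 it lay 5413 to 6400 bp away, nearer to the telomere at ends with a Y' element. This held both where the X element was next to the telomere and where Y' elements put it kilobases inside, so that most summits gathered under 1 kb and around 5 to 7 kb from the end. The 4 peaks off the telomeric region were those of FET4 and IMD2, 1 at a tRNA gene near MIX23 on II left with a fold of 2.47, and 1 near the silent mating type gene HMLALPHA1 on III left with a fold of 2.79, which overlapped 2 annotated replication origins (ARS).

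**Figure D4:**
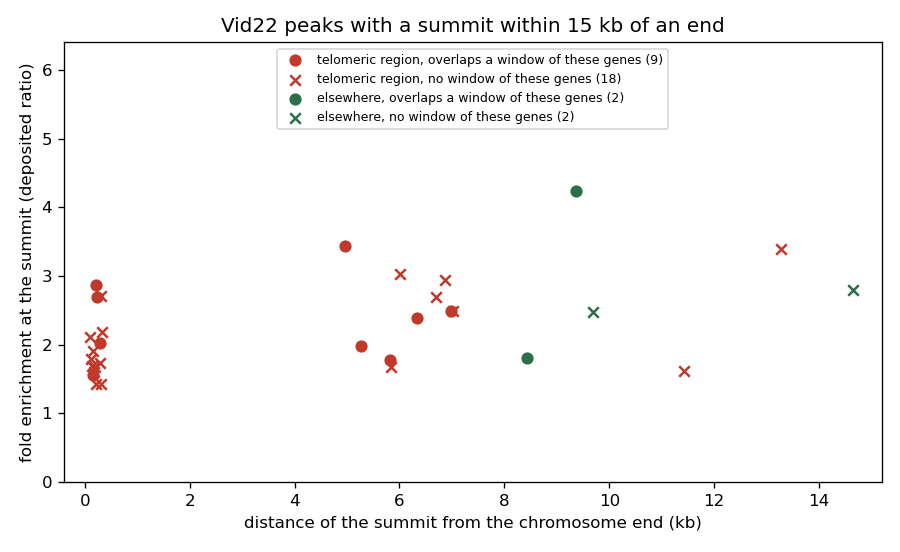
Fold enrichment (deposited ratio) of the 31 peaks with a summit within 15 kb of an end, by distance of the summit from the end in kb. Peaks on a telomeric region (red) gather next to the end and around 5 to 7 kb, circles are the 11 peaks that overlapped one of the 174 genes, and the FET4 peak at 4.24 is the highest.

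Of the 15 ends whose telomeric region had an X element only, 13 had a peak on it, and of the 17 with a Y' element 11. The 8 ends with no peak were II right, IV left, IX left, X left, XIII left, XV right, XVI left and XVI right, and they carry no overlapped gene. Their telomeric regions had 0.103% to 28.2% unique 50-mers (median 1.74%), against 7.54% to 95.01% (median 41.7%) at the 24 ends with a peak. All 13 regions with more than 30% unique 50-mers had a peak, and all 13 had an X element only. Of the regions under 30%, 11 had a peak and 8 had none. Within each class of ends the 2 groups differed more clearly. Among X-only ends, regions with a peak had at least 31.1% unique 50-mers (X right). The 2 without had 4.22% (II right) and 28.2% (IV left). Among ends with a Y' element, regions with a peak had 7.54% (XIV left) to 22.5% (VIII left). Those without had 0.103% (X left) to 7.73% (XVI right). The part of unique sequence in the missing peaks was not tested.

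**Figure D5:**
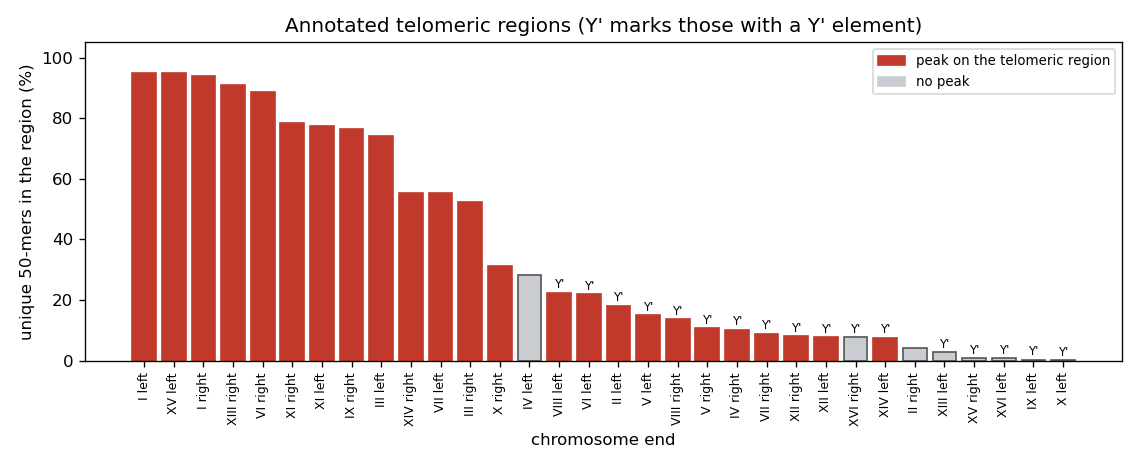
Share of unique 50-mers (%) in the annotated telomeric region of each of the 32 ends, in falling order, with regions under a peak in red and those without in grey. The 8 regions without a peak all lie at or below 28.2%.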

How the data were processed

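Peaks of the Vid22-13Myc library were used, and the control enters through peak calling only. According to the methods, the authors mapped 50 bp reads with bowtie, discarded reads without a single best position, took out PCR duplicates (rmdup of samtools) and ran MACS2 with its default settings. Versions are not given in the sources used here. For each summit MACS2 wrote, in the file the authors deposited, the fold enrichment as a ratio of pileup to local control and the -log10 of its p-value and q-value. The deposited score repeats the q-value on that scale, multiplied by 10 and cut to an integer. Read numbers are not in the list, so the depth is unknown. The lowest -log10 q was 1.34. The false discovery rate threshold of the methods, read as a -log10 q of at least 9, was applied here.

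Genes, telomeric regions, ARS and tRNA genes came from the RefSeq annotation of sacCer3, the build the submitters' processing notes name. A 50-mer was unique when it occurred once on both strands of the whole genome, and a window's share is over its positions. The deposited file covers 1 library, so shares carry Wilson intervals (95%) and no test was made. Every gene overlapped by a peak past the threshold or by weaker peaks only was named, with the genes next to the 15 kb limit. The genes and lists were chosen with earlier results of these data known. The overlap code was tested on simulated data. Tables were made with pandas 2.3.3 and numpy 2.4.6 in Python 3.11.15, intervals with scipy 1.17.1 and plots with matplotlib 3.10.9.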

Additional observations from a re-analysis of the deposited data

How the results depend on the processing

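The 13 overlapped genes, 4 genes with a summit and 11 ends were recounted under other settings. All deposited peaks gave 7 genes with a summit. A -log10 q of at least 20 gave 8 genes, 2 with a summit and 7 ends. The gene body alone gave 8 genes and 1 with a summit, and 1000 bp upstream gave 22 genes and 8 with a summit. A limit of 20 kb gave 20 of 228 genes. Requiring at least 50% unique 50-mers in the window left 6 of 78 genes at 6 ends, and at least 90% left 2 of 54 genes, 1 with a summit, at 2 ends. An overlap of at least 50% gave 7 genes at 7 ends. Without peaks at annotated telomeric regions, an alternative added after the data were seen, 2 genes remained at 2 ends, 1 with a summit. All other settings, among them a -log10 q of at least 10, a limit of 10 kb, the nearest gene edge and an overlap of at least 100 bp, moved the counts by no more than 1.5 times. No paired analysis was possible because each condition has 1 library and no test was made.

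With 1 library per condition and no read numbers, absence of Vid22 and lack of placed reads cannot be told apart at genes with few or no unique 50-mers. This limit does not apply to the 45 genes that had fully unique windows and no peak past the threshold, for which the depth is unknown. Where a peak spans a short gene and a telomeric region, which of them it belongs to was not tested.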
